A study of Mus musculus with 89 samples.

Results

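The lipoprotein handling genes Apoe, Clu, Lcat, Abca1, Lrp1, Lrp4 and Scarb1 were followed across cell classes, quiescent stem cell colours and ages. They are 7 of the 24411 genes in the deposited tables and form a named list that no measured value defines, although it was drawn up with earlier results of these data known; all 7 had reads. The data come from 89 cells, sorted singly after dissection of the dentate gyrus from mice homozygous for Nestin:CFPnuc. This transgene, B6.Cg-Tg(Nes-CFP)1Enik/J, places a nuclear fluorescent protein under control of Nestin sequences, and the background is labelled C57BL/6. All cells, of both ages, carried this transgene, and sex and treatment are not stated. The 2-month group held 48 cells and the 4.5-month group 41 cells. The authors' table of groups called 60 cells qNSC, 18 aNSC and 11 IPC, read here as quiescent neural stem cells, activated neural stem cells and intermediate progenitor cells. It also gave the qNSC 3 colours, red (26 cells), green (25) and blue (9), whose meaning is not stated. Since the labels do not tie cells to animals, each group counts as 1 sample. Differences below are therefore sizes in these cells, with no test and no p-value, and each SD is a spread between cells, not between animals.

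In the brain, apolipoprotein E (Apoe) and clusterin (Clu, also called apolipoprotein J) are secreted mainly by astrocytes and form particles that carry cholesterol and phospholipid between cells. ABCA1 loads lipid onto these particles, LCAT esterifies their cholesterol, and receptors such as LRP1 and SR-BI (Scarb1) take up particles or their lipid. Neural stem cells of the dentate gyrus share much of the astrocyte programme, lipid metabolism included.

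The cells held between 234607 and 1896072 counts (median 912391). All 60 qNSC had at least 10 reads of 50% or more of 12 astrocyte markers, and 10 of 11 IPC cells did so for 6 progenitor markers. For 8 markers of quiescent neural stem cells, 30 of 60 qNSC did so: 1 of 9 blue, 11 of 26 red and 18 of 25 green cells. On that list 7 of 18 aNSC and 2 of 11 IPC cells did so too. Of 9 microglial markers, C1qa, C1qb, C1qc, Csf1r, Trem2 and Ctss had no read in any cell, and Cx3cr1 and Tmem119 had 1 read in 1 cell each. P2ry12 had 10 or more reads in 6 cells, all qNSC, and the 9 markers summed to at most 2677 CPM in blue, 951 in red and 141 in green cells. By the same measure 14 cells carried 50% or more of the markers of another type: 7 for oligodendrocyte precursors, 4 for oligodendrocytes, 2 each for endothelial and mural cells and 1 for ependymal cells, some cells being counted for more than 1 type. All 7 precursor-marked cells were aNSC and had at least 10 reads of Pdgfra, a receptor that defines oligodendrocyte precursors; their summed precursor markers lay between 7719 and 17300 CPM (counts per 1000000 counts of a cell), against 0 to 212 CPM in the other 11 aNSC. These 7 Pdgfra-positive cells go against the label aNSC, so the aNSC were divided into 7 Pdgfra-positive and 11 Pdgfra-negative cells. How the authors assigned classes and colours is not stated, and they may rest on the same expression values as the levels given here. A gene was counted as higher or lower between 2 groups by a fold rule, which asks that mean log2(CPM + 1) differ by 1 or more and that the CPM of the summed counts differ 2-fold or more, in the same direction.

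The deposited values carry no sequence. Upstream windows from RefSeq (GRCm38.p6) were matched by symbol and kept only where their start site was the annotated gene start. Such windows were found for 3 of the 7 genes, Apoe, Abca1 and Lrp1. The windows of Apoe, the most abundant of the 7, and of Abca1, whose difference between ages in blue cells is the largest of any of the 7 genes in any group, are shown because the motifs found in them differ. Each holds the 250 bases before the start site, 5′ to 3′ on the minus strand, with capitals marking motif matches.
Apoe, chr7:19699189-19699438: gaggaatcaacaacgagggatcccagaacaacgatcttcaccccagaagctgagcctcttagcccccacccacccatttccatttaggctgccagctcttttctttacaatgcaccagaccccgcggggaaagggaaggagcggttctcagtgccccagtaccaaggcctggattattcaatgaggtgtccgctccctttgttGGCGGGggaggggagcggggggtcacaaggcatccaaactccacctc
Abca1, chr4:53159896-53160145: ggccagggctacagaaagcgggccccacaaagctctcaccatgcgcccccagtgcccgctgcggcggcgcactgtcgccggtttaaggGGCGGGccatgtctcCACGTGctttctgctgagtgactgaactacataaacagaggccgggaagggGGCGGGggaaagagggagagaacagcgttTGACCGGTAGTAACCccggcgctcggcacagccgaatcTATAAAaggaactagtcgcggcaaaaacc
The motifs searched, on both strands, were GGCGGG as the core of the GC box, TATAAA as the TATA box, CCAAT as the CAAT box, CACGTG as the E-box, TGANTCA as the site of AP-1 factors and the direct repeat known as the liver X receptor response element. The Apoe window held 1 GC box, at -47 to -42 from the start site. The Abca1 window held 2 GC boxes, 1 E-box at -147 to -142, the direct repeat on the opposite strand at -67 to -53 and TATAAA at -29 to -24. Of 32851 windows of the same length, 32.5% held a GC box, 6.02% the E-box, 0.621% the direct repeat and 12.4% the TATA box. The CAAT box, held by 33.8% of windows, and the AP-1 site, held by 6.75%, were found in neither of those shown. These matches describe letters only.

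Apoe and Clu were among the most abundant messages of the quiescent cells and were lower, step by step, from qNSC to Pdgfra-negative aNSC, Pdgfra-positive aNSC and IPC. Apoe (mm10 chromosome 7, 19696109 to 19699188, minus strand) had a lowest, median and highest level of 10292, 30409 and 79854 CPM in the 60 qNSC. In the median qNSC 3.04% of all counts were Apoe, and in the highest cell 7.99%. The 11 Pdgfra-negative aNSC had 2001, 8416 and 17923 CPM, and the 7 Pdgfra-positive cells 1525, 3359 and 4749 CPM. The 11 IPC cells had 23.7, 489 and 11232 CPM. None of the Pdgfra-positive cells reached the lowest qNSC, whereas 4 of the 11 Pdgfra-negative aNSC did. What share of all genes separates Pdgfra-positive aNSC from qNSC in this way was not computed. Mean log2(CPM + 1) of Apoe was 14.86 ± 0.51 (SD over 60 cells), 13.07 ± 0.87 (11 cells), 11.67 ± 0.56 (7 cells) and 8.82 ± 2.24 (11 cells) in the same order. Neighbouring groups in this order overlapped cell by cell.

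Clu (chromosome 14, 65968483 to 65981547, plus strand) followed the same order with a steeper end. Its lowest, median and highest levels were 3862, 16676 and 44862 CPM in qNSC and 629, 5598 and 11478 CPM in Pdgfra-negative aNSC. They were 155, 561 and 1369 CPM in Pdgfra-positive aNSC. The Pdgfra-negative aNSC at 11478 CPM of Clu carried endothelial and mural markers by the measure given above. With 1896072 counts, the most in its group, that cell weighs most in the group's summed CPM. In IPC cells the median was 1.42 CPM; 9 of 11 cells had a read but only 2 had 10 or more, and the highest had 215.7 CPM. The highest IPC cell lay below the lowest Pdgfra-negative aNSC, a separation seen in 0.0228% of the 8787 genes compared (2 genes in that direction). Apoe reads, by contrast, numbered 10 or more in all 11 IPC cells. Length-scaled abundance (TPM, transcripts per 1000000) put Apoe at rank 2 and Clu at rank 3 of all genes in the mean qNSC, behind Cst3, the secreted protease inhibitor cystatin C. In the mean Pdgfra-negative aNSC Apoe was again at rank 2 and Clu at rank 11, and in Pdgfra-positive aNSC they were at ranks 4 and 265. In the mean IPC cell Apoe was at rank 27 and Clu at rank 5401.

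One IPC cell, of 4.5 months, held most of the Apoe of its class. It had 11232 CPM of Apoe and 215.7 CPM of Clu, and at least 10 reads of 50% of the progenitor markers and of 50% of the astrocyte markers. Its reads of Hopx (593) and Slc1a3 (1674), which mark stem cells and astrocytes, were within the range of the other IPC cells, which reached 1414 and 1719. The cell stood apart in summed oligodendrocyte precursor markers, at 1675 CPM against at most 44.97 CPM in the other IPC cells, without a read of Pdgfra. It had no read of Eomes, a progenitor marker read in 7 of the 11 IPC cells. The other 10 IPC cells had 23.7 to 1537 CPM of Apoe. Without this cell the CPM of the summed Apoe counts of IPC was 535 instead of 1706, that of Clu 4.55 instead of 27.7, and Apoe was at rank 233 by mean TPM. One Pdgfra-negative aNSC, also of 4.5 months, was the only cell of the 89 in which Clu exceeded Apoe in TPM. It had 2001 CPM of Apoe beside 5858 CPM of Clu, and at least 10 reads of 50% of the ependymal markers.

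**Figure D1:**
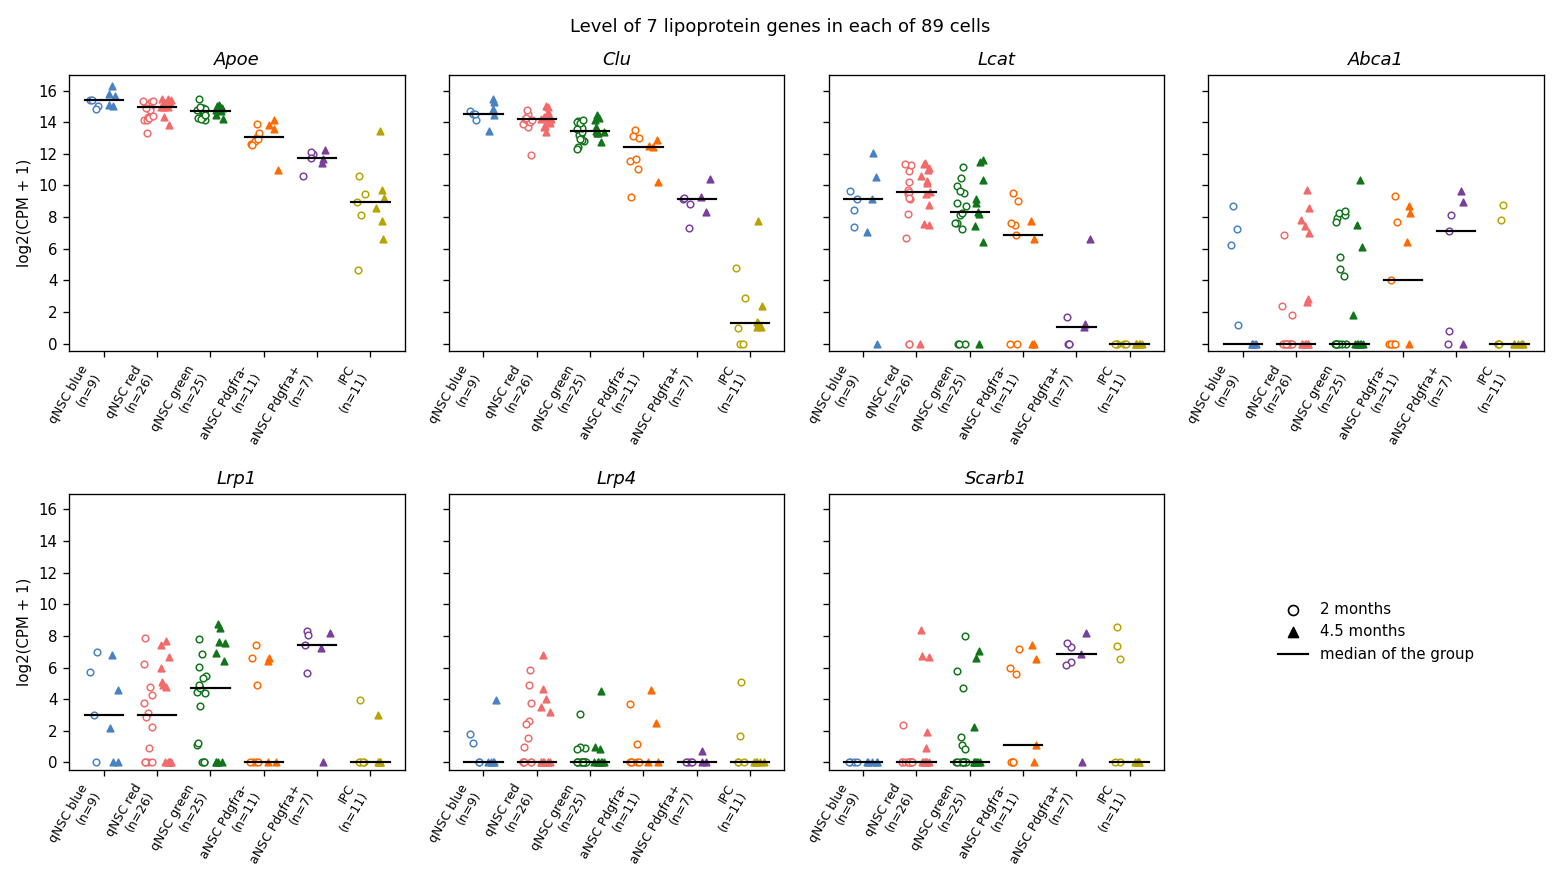
Level of each of the 7 genes in every cell, as log2(CPM + 1), by group; open circles are cells of 2 months, filled triangles cells of 4.5 months, and the black line is the median of the group. Apoe and Clu step down from qNSC (blue, red, green) to IPC, and Lcat has no read in the 11 IPC cells. Abca1, Lrp1, Lrp4 and Scarb1 reach 0 in every group, but Lrp1 and Scarb1 were each read in 6 of 7 Pdgfra-positive aNSC.

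Lcat (chromosome 8), the enzyme that esterifies cholesterol on lipoprotein particles, had its highest levels in the quiescent cells. It had a median of 566 CPM in qNSC, reached 4180 CPM, and was read in 52 of 60 cells (86.7%, exact Clopper-Pearson 95% interval 75.4 to 94.1). In Pdgfra-negative aNSC it was read in 7 of 11 cells, with a median of 114 and a highest value of 720 CPM. In Pdgfra-positive aNSC 4 of 7 cells had a read, but only 1 had 10 or more, at 95.8 CPM. No IPC cell had a read of Lcat; 0 of 11 cells allows a share of up to 27.3%, taking 3 cells of the total as the limit here and for every other share of 0. Every qNSC in which Lcat was detected had at least 10 reads of it, so that cells were either clearly positive or at 0. With cells thinned to 444835 counts, which left out 6 cells of 2 months and 3 of 4.5 months, the shares with an Lcat read were 89.1% in qNSC, 50% in Pdgfra-negative aNSC, 28.6% in Pdgfra-positive aNSC and 0 in IPC. An antisense gene, Gm16156, overlaps Lcat, and Gm16217 overlaps Lrp1; the library kit does not mark strand, so their reads cannot be told apart from those of the named genes. Gm42633 overlaps Scarb1 on the same strand, so strand could not separate their reads in any case.

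Abca1 (chromosome 4), the lipid exporter, was present in some cells of each group and absent from others. A read was found in 26 of 60 qNSC (43.3%, interval 30.6 to 56.8), 6 of 11 Pdgfra-negative aNSC, 5 of 7 Pdgfra-positive aNSC and 2 of 11 IPC cells. Where it was found, its level could be high: the highest cells had 1296 CPM in qNSC, 652 and 804 CPM in the aNSC groups and 435 CPM in IPC. The CPM of the summed counts was 91.0 in qNSC (exact Poisson 95% interval 88.5 to 93.6), 153 in Pdgfra-negative aNSC (145 to 162), 279 in Pdgfra-positive aNSC (267 to 292) and 44.9 in IPC (40.9 to 49.3). These intervals, and floors of 3 counts, cover the counting error of reads only, since amplified reads were counted with no molecular identifier to tell molecules apart. Intervals and limits on shares cover the sampling of cells as if they were independent, and not differences between animals. Thinned shares with an Abca1 read were 40%, 50%, 57.1% and 10%.

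Of the receptors, Lrp1 (chromosome 10), the large endocytic receptor for apolipoprotein E, was read in 40 of 60 qNSC with a median of 15.4 CPM. It was read in 5 of 11 Pdgfra-negative aNSC and in 6 of 7 Pdgfra-positive aNSC, where the median was 169 CPM and the highest cell had 321 CPM. Only 2 of 11 IPC cells had a read, the higher at 14.1 CPM. Scarb1 (chromosome 5), the receptor that takes cholesterol ester from high-density particles, was read in 15 of 60 qNSC (25%, interval 14.7 to 37.9) and in none of the 9 blue cells. It was read in 6 of 11 Pdgfra-negative aNSC, 6 of 7 Pdgfra-positive aNSC (median 113 CPM) and 3 of 11 IPC cells. Lrp4 (chromosome 2), a receptor better known from the neuromuscular synapse and Wnt signalling, stayed low, with at most 110 CPM in any cell. It had a read in 22 of 60 qNSC but 10 or more reads in only 7 of them, and in 4 of 11, 1 of 7 and 2 of 11 cells of the other groups. After thinning, Lrp1 was read in 63.6%, 37.5%, 85.7% and 20% and Scarb1 in 20%, 50%, 85.7% and 20% of qNSC, Pdgfra-negative aNSC, Pdgfra-positive aNSC and IPC cells. Both Lrp1 and Scarb1 were thus read most often in the cells with oligodendrocyte precursor markers; the part of those cells' identity in these levels was not tested.

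Between aNSC and qNSC, 5 of the 7 genes passed the fold rule. Apoe, Clu and Lcat were lower in aNSC, by 2.33, 3.15 and 4.49 in mean log2(CPM + 1), and Scarb1 and Abca1 were higher, by 3.15 and 1.71. Among the 8878 genes compared, 4.57% were lower and 24.1% higher by the same rule. Of the 7 genes 42.9% were lower and 28.6% higher, the latter near the share of all genes. The median over all genes was a difference of 0.80, and that of the 7 genes -0.36, so most genes stood on the higher side in aNSC; 84.1% of the genes past the rule were higher, and 65.9% with size factors from scran, which shifted the median of all genes to 0.60. Abca1 no longer passed with those size factors (ratio 1.41), and Scarb1 no longer passed without the cells that carry markers of another type (difference 1.20, ratio 1.57).

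With the 7 Pdgfra-positive cells set aside, Apoe, Clu and Lcat remained lower in aNSC than in qNSC. The differences were -1.79, -1.98 and -3.14, and the CPM of the summed counts was 2.79-, 2.81- and 6.20-fold lower, against a background of 5.07% of 8033 genes lower and 20.4% higher. Scarb1 was higher by 1.99, with summed CPM of 59.3 (54.2 to 64.8) against 19.7 (18.5 to 20.9). It was the only 1 of the 7 genes called higher (14.3%), a share not above that of all genes. Of the genes past the rule, 80.1% were higher in aNSC, and 63% with scran size factors. The call of Scarb1 was lost with those size factors (ratio 1.72) and without the cells with markers of another type, and in the latter case Abca1 was called higher instead (difference 2.06, ratio 2.31). Summed astrocyte markers lay between 298 and 40316 CPM, median 14571, in Pdgfra-negative aNSC and between 12842 and 47965 CPM, median 34446, in qNSC. Whether this marker difference has a part in the differences of Apoe, Clu and Lcat was not tested.

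The Pdgfra-positive cells differed from the other aNSC in 5 of the 7 genes. Clu was lower by 3.01 in mean log2(CPM + 1), or 9.92-fold in summed CPM, Lcat by 3.47 and Apoe by 1.40. Lrp1 was higher by 3.50, with summed CPM of 191 against 28.5, and Scarb1 by 2.99. In this comparison 17% of 9574 genes were lower and 25.3% higher. Of the 7 genes 42.9% were lower and 28.6% higher, the latter near the share of all genes. The cells of the 2 groups overlapped for each of the 7 genes; 0.0731% of genes were lower and 0.418% higher with no overlap. The ratio of Apoe to Clu in TPM had a median of 2.84 in qNSC, 3.50 in Pdgfra-negative aNSC and 8.87 in Pdgfra-positive aNSC. In the 9 IPC cells with a Clu read the median ratio was 113. The lowest ratio among Pdgfra-positive cells was 5.28, and the highest among qNSC was 7.99, so that these groups overlapped.

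Between IPC cells and Pdgfra-negative aNSC, 5 of the 7 genes were lower in IPC and none higher, while 20.5% of 8787 genes were lower and 22.8% higher. Clu had the largest difference of the 7, -9.79, and a 212-fold lower summed CPM, and Apoe was lower by 4.25 (6.55-fold). Lcat was lower by 4.98, at least 480.4-fold in summed CPM when 3 counts over the 11 IPC cells are taken as its floor. Abca1 was lower by 2.53 and Lrp1 by 2.28, the latter from 28.5 to 2.07 summed CPM. The 2 genes that did not pass were Lrp4 and Scarb1, with differences of -0.47 and -1.02. Without the IPC cell with the highest Apoe, the same 5 genes passed, with differences of -4.72 for Apoe and -10.36 for Clu.

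Across single cells Apoe and Clu varied together. Spearman's rho of log2(CPM + 1) was 0.58 over the 60 qNSC (Pearson's r 0.55) and 0.85 over all 89 cells (r 0.90), which span the classes. Within red, green and blue qNSC rho was 0.49 (26 cells), 0.41 (25 cells) and 0.25 (9 cells). Clu and Lcat had a rho of 0.41 in qNSC, Apoe and Lcat 0.09, and Apoe and Abca1 -0.26. The share of astrocyte markers detected in a qNSC had a rho of 0.39 with Clu and of -0.07 with Apoe. Both genes of a pair are read from the same library at the same depth, and cells share animals in unknown number; no p-value is given.

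**Figure D2:**
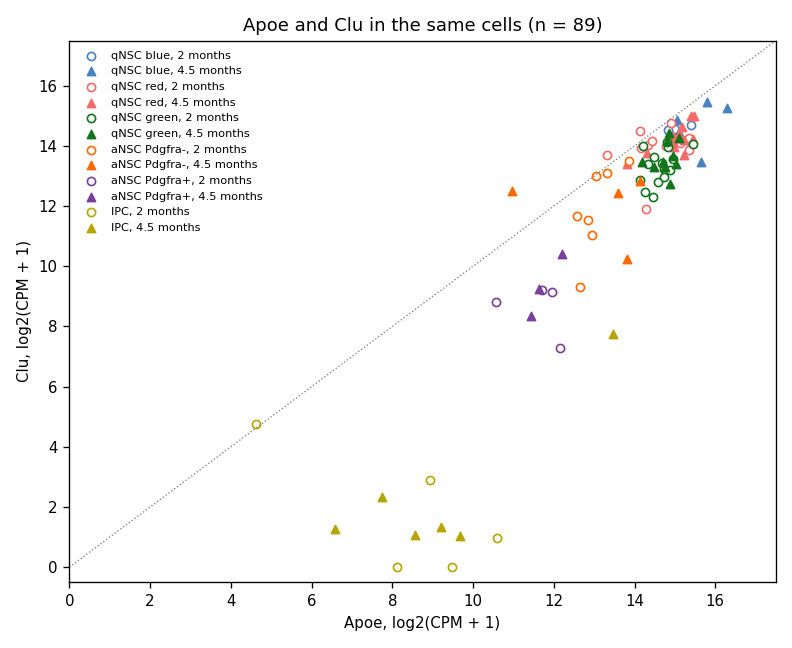
Clu against Apoe in each of the 89 cells, both as log2(CPM + 1), coloured by group, with open circles for 2 months and filled triangles for 4.5 months; the dotted line marks equal values. The qNSC lie at the upper right, the aNSC below them, and 10 of the 11 IPC cells lie at or below 1537 CPM of Apoe and 26.4 CPM of Clu, apart from the 1 cell at 11232 and 215.7 CPM.

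Genes whose level over the 89 cells was most like that of each of the 7 were sought among 6878 genes. For Apoe they were Clu (rho 0.85), Cst3 (0.82) and Cmtm5, a membrane protein of glia (0.80). For Clu they were Cldn10, a claudin of astrocytes (0.87), Cst3 (0.86) and Apoe. For Lcat they were Htra1, a secreted serine protease (0.77), Pla2g7, the platelet-activating factor acetylhydrolase (0.73), and Cxcl14, a chemokine (0.70). Within the 60 qNSC the rho of these pairs lay between 0.47 and 0.68. No gene had a rho above 0.45 with Abca1, Lrp1, Lrp4 or Scarb1; the nearest were Rwdd4a (0.36), Fam102a (0.45), Hdac7 (0.41) and Rnaseh1 (0.43), weak values from sparse counts.

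Among the quiescent cells Apoe and Clu both had their highest medians in blue and their lowest in green cells. The lowest, median and highest Apoe levels were 29330, 43217 and 79854 CPM in blue cells, 10292, 32167 and 45175 CPM in red cells and 18036, 27208 and 44601 CPM in green cells. Clu had medians of 24018, 18557 and 11157 CPM in blue, red and green cells, and only 2 of 25 green cells reached the red median. Clu was lower in green than in red cells by 0.65 in mean log2(CPM + 1), 1.63-fold in summed CPM, which did not pass the fold rule; Apoe differed by -0.14. The ratio of Apoe to Clu in TPM had a median of 2.36 in blue, 2.56 in red and 3.80 in green cells. Lcat had medians of 558, 781 and 316 CPM and a green minus red difference of -1.07 with a ratio of 0.64.

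Of the 7 genes only Lrp4 passed between green and red cells, where 6.08% of 7613 genes were lower in green and 11.1% higher. It was read in 7 of 25 green and 12 of 26 red cells, with a difference of -1.21 and summed CPM of 1.22 (0.824 to 1.74) against 10.5 (9.28 to 11.9). The red sum rests in large part on 1 cell of 4.5 months with 110 CPM, which the interval does not reflect. Of the genes past the rule 64.6% were higher in green, and 53.4% with scran size factors. The call of Lrp4 was lost on TPM, with a pseudocount of 10, with medians and without the 4 of these cells that carried markers of another type. Astrocyte markers summed to a median of 27531 CPM in green and 39793 CPM in red cells; their part in these differences was not tested.

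Blue cells had high levels of both apolipoproteins, although neither passed the fold rule against the other qNSC. All 9 blue cells were at or above the median Apoe of the other 51 qNSC and 8 of 9 at or above their median Clu. The differences were 0.63 for Apoe (ratio 1.44) and 0.82 for Clu (ratio 1.61), while the median over all 7705 genes was -0.51. With scran size factors Clu was called higher in blue cells. Scarb1 was the 1 gene past the rule, with 0 of 9 blue cells read (a share of up to 33.3% is allowed) against 15 of 51; its summed CPM was at least 49.6-fold lower, taking 3 counts over the 9 cells as the floor. The call of Scarb1 was lost with a pseudocount of 10, with medians and with the stricter rule of a difference of 2 and a ratio of 4. In this comparison 22.6% of genes were lower in blue and 5.97% higher. Blue cells had a median of 793965 counts and 3405 genes, against 1004304 counts and 3724 genes in the other qNSC. Their microglial markers were limited to P2ry12, read in 1 blue cell.

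Between the ages none of the 7 genes passed the fold rule, whether over all cells (1.21% of 7847 genes higher, 4.18% lower) or over qNSC (3.81% of 7247 genes higher, 8.1% lower). Over all cells 22.5% of the genes past the rule were higher, and 35.4% after thinning. In qNSC, Apoe had a lowest, median and highest level of 10292, 27725 and 44601 CPM in the 32 cells of 2 months and 14511, 33516 and 79854 CPM in the 28 cells of 4.5 months. The corresponding Clu levels were 3862, 16189 and 27532 CPM and 6877, 18480 and 44862 CPM. Mean log2(CPM + 1) of Apoe was 15.03 ± 0.49 (SD, n = 28 cells) at 4.5 months and 14.70 ± 0.48 (n = 32 cells) at 2 months, a difference of 0.32, and that of Clu differed by 0.36. Lcat had medians of 637 and 519 CPM at 4.5 and 2 months and a difference of 0.82. The ratios of summed CPM, 4.5 over 2 months, were 1.13 for Apoe, 1.17 for Clu, 1.78 for Lcat, 1.66 for Abca1, 2.01 for Lrp1, 1.92 for Lrp4 and 1.98 for Scarb1. Lrp1 was read in fewer cells at 4.5 months (16 of 28 against 24 of 32), and its difference in mean log2(CPM + 1) was 0.27. Abca1 differed by -0.22, opposite in sign to its ratio. The median difference was 0.32 over the 7 genes and -0.22 over all genes compared.

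The mean of Apoe and of Clu was slightly higher at 4.5 months in each colour. The differences in Apoe were 0.41 in blue (5 cells of 4.5 and 4 of 2 months), 0.37 in red (13 and 13 cells) and 0.14 in green cells (10 and 15 cells), and those in Clu 0.23, 0.26 and 0.29. Each of these is below the larger of the SDs between cells at the 2 ages. In Pdgfra-negative aNSC Apoe differed by 0.09 and Clu by 0.13, in Pdgfra-positive aNSC by 0.17 and 0.72, and in IPC by 0.86 and 0.75. Without the IPC cell with the highest Apoe the IPC differences were 0.01 and -0.31.

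Abca1 differed between ages in opposite directions in red and blue cells. Red cells had Abca1 reads in 3 of 13 (2 months) and 7 of 13 (4.5 months), with summed CPM of 11.6 and 137 and a difference of 2.69. In blue cells it was read in all 4 cells of 2 months, at 1.26, 74.9, 150 and 409 CPM, and in none of the 5 cells of 4.5 months, which allows a share of up to 60%. These blue cells of 4.5 months were shallower, with a median of 442931 counts and 3005 genes, against 795076 and 3950.5 at 2 months. What share of all genes separates the blue cells by age in this way was not computed. Green cells had Abca1 reads in 8 of 15 (2 months) and 4 of 10 (4.5 months) cells, and the highest green cell, of 4.5 months, had 1296 CPM. Their difference in mean log2(CPM + 1) was -1.08, opposite in sign to the ratio of summed CPM, 1.33. Scarb1 had reads in 1 of 13 (2 months) and 5 of 13 (4.5 months) red cells, with summed CPM of 0.0839 and 33.4. In IPC cells Scarb1 was read in 3 of 5 cells of 2 months, at 92.7, 161 and 384 CPM, and in 0 of 6 cells of 4.5 months, which allows up to 50%. Lrp1 in green cells had summed CPM of 36.4 at 2 months and 129 at 4.5 months, from reads in 12 of 15 and 6 of 10 cells. Each of these rests on a few cells, and the difference between colours was not tested.

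**Figure D3:**
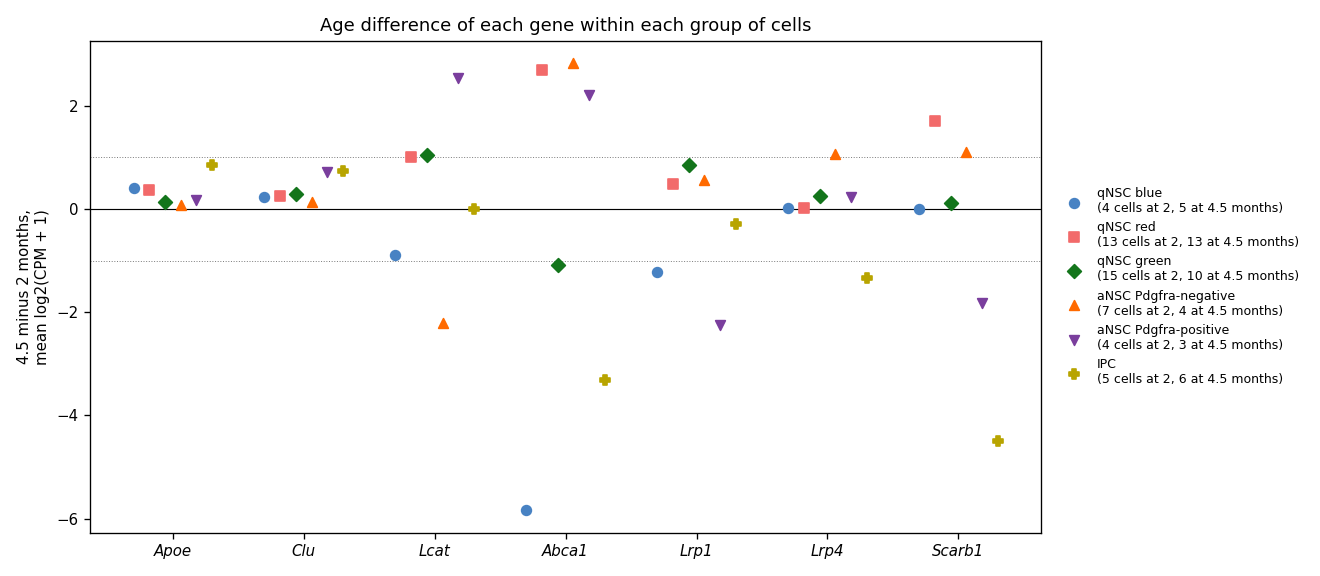
Difference in mean log2(CPM + 1) between cells of 4.5 and 2 months for each of the 7 genes, one symbol per group, with dotted lines at -1 and 1. Apoe and Clu lie between 0.09 and 0.86 in all 6 groups, whereas Abca1 runs from -5.84 in blue cells to 2.83 in Pdgfra-negative aNSC.

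A list of 50 further genes of lipoprotein and cholesterol handling was compared in the same way, and 23 to 33 of them were read widely enough in each comparison. In Pdgfra-negative aNSC against qNSC, 6 of 27 were higher (22.2%, beside 20.4% of all genes) and 2 lower (7.41%, beside 5.07%), shares near those of all genes. The largest was Pltp, the phospholipid transfer protein, higher by 3.11; its summed CPM was 672 against 34.5, but its median among the 11 aNSC was 40.8 CPM and its highest cell had 2483 CPM. Sort1, the sorting receptor sortilin, was higher by 2.30 and Lipa, the lysosomal acid lipase, by 1.17. Soat1, which esterifies cholesterol for storage, was lower by 1.81 and Cyp46a1, the cholesterol 24-hydroxylase, by 1.25. The list's median difference was 0.56, beside 0.70 over all genes.

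In IPC cells against Pdgfra-negative aNSC, 14 of 27 list genes were lower (51.9%, beside 20.5% of all genes) and 1 was higher (3.70%, beside 22.8%), with a list median of -1.81 beside 0.20 over all genes. Pltp was lower by 4.06, Mfsd2a, a transporter of lysophosphatidylcholine, by 3.69, Sort1 by 3.19 and Lrp10, a member of the receptor family, by 2.57. Mfsd2a had no read in the 11 IPC cells and was at least 407.7-fold lower in summed CPM, with 3 counts over the group as the floor. The gene that was higher was Lrp12, another receptor family member, by 1.95, read in 4 of 11 IPC cells and 1 of 11 aNSC. Without the IPC cell with the highest Apoe, Pltp was at a median of 0 and at most 6.66 CPM in IPC.

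In Pdgfra-positive against Pdgfra-negative aNSC, 7 of 33 list genes were higher (21.2%, beside 25.3% of all genes) and 12 lower (36.4%, beside 17%). The list's median difference was 0.06, beside 0.47 over all genes. Lrp1b, a relative of Lrp1, was higher by 4.90, read in 6 of 7 cells at a median of 30.5 CPM and in none of the 11 others. Nceh1, a cholesterol ester hydrolase, was higher by 2.38 and Abcg1, a sterol exporter, by 2.29, the latter read in 6 of 7 cells. Pltp was lower by 4.35, Sort1 by 3.92, Srebf2, the regulator of cholesterol synthesis, by 3.34 and Insig1, which holds that regulator in check, by 2.57.

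**Figure D4:**
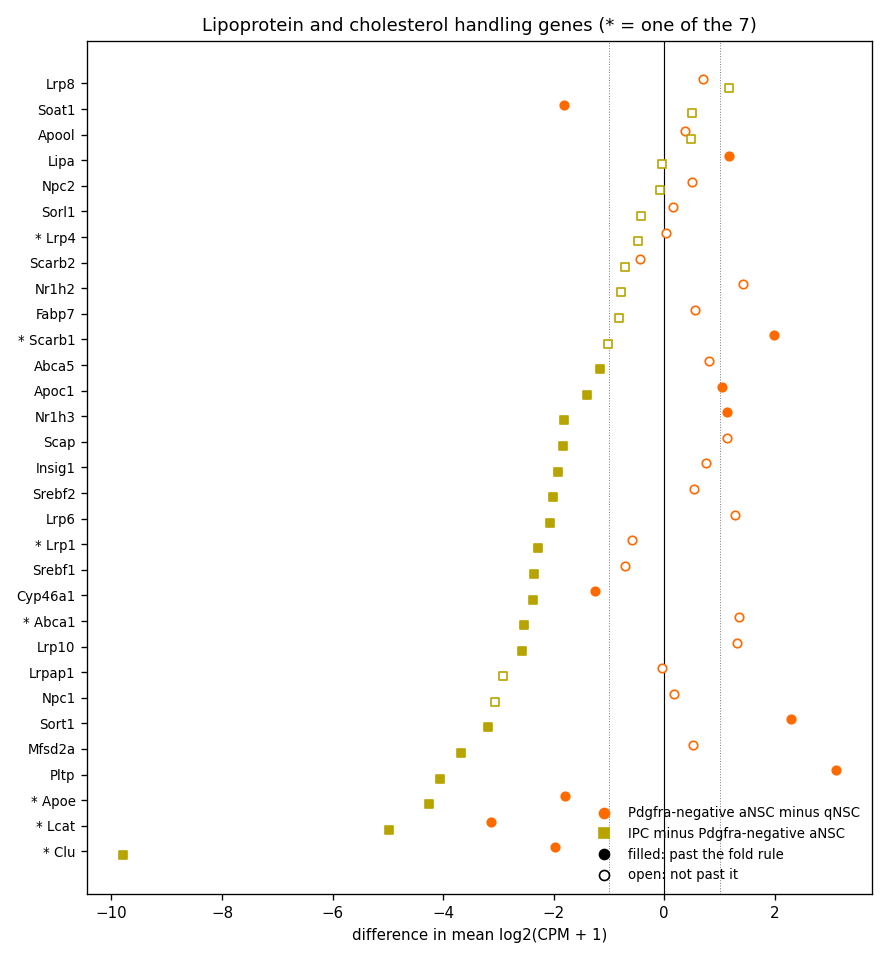
Difference in mean log2(CPM + 1) of 31 genes read widely enough in both comparisons, orange circles for Pdgfra-negative aNSC minus qNSC and yellow squares for IPC minus Pdgfra-negative aNSC; filled symbols passed the fold rule and asterisks mark the 7 genes. Clu, Lcat and Apoe are low in both comparisons, while Pltp and Sort1 are high in the first and low in the second.

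Among the colours the list gene that differed most was Fabp7, the brain fatty acid binding protein of radial glia. Its median was 0 CPM in blue, 124 in red and 997 in green cells; it was higher in green than in red by 3.28 and lower in blue than in the other qNSC by 4.67. Mfsd2a was lower in green than in red cells by 2.82, read in 5 of 25 and 17 of 26 cells, and Insig1 by 1.87 and Abcg4, another sterol exporter, by 1.16 were the others of 25 list genes, so that 4% were higher and 12% lower, beside 11.1% and 6.08% of all genes. In blue cells 3 of 25 list genes were higher (12%, beside 5.97% of all genes) and 6 lower (24%, beside 22.6%, a like share). Sorl1, a sorting receptor, was higher by 2.21, Npc1, which exports cholesterol from lysosomes, by 1.48 and Apoc1, a small apolipoprotein, by 1.06, the last read in 2 of 9 blue cells. Sort1 was lower by 2.68, Soat1 by 1.72 and Lrp8, an apolipoprotein E receptor, by 1.38.

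Between ages in qNSC 1 of 23 list genes was higher at 4.5 months (4.35%, beside 3.81% of all genes) and 2 were lower (8.70%, beside 8.1%), shares near those of all genes. Lrp6, a Wnt co-receptor of the same family, was higher by 1.04, Apool, a mitochondrial apolipoprotein O relative, was lower by 1.79 and Pltp by 1.02. Apool was read in 13 of 32 cells of 2 months and 3 of 28 cells of 4.5 months. Pltp had summed CPM of 51.8 and 11.6 at 2 and 4.5 months, although it was read in 15 of 32 and 16 of 28 cells. Over all cells Apool was the only 1 of 24 list genes past the rule, lower by 1.27 (4.17% of the list, beside 4.18% of all genes).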

How the data were processed

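The data are 1 library per sorted cell, made with the SMART-Seq v4 kit at a reduced volume and Nextera XT, per the labels' protocols. The authors deposited estimated counts and TPM per gene and cell, and a table of classes and colours; STAR, RSEM and mm10 are listed, per the submitters' processing notes. Here counts were scaled to CPM and taken as log2(CPM + 1); 4.44% of counts above 0 were not whole (tolerance 1e-06) and were rounded for intervals and detection. A gene entered a comparison (8 in all) when 20% or more of 1 group's cells had a read. The comparison script was tested on simulated data. Named were the 7 genes, the 3 genes nearest to each by Spearman's rho, and up to 4 list genes past the fold rule each way; a list gene that is counted but not shown is not reported here. The genes and lists were chosen with earlier results of these data known. Gene positions are from a GENCODE annotation of mm10. Alternatives were TPM, scran 1.30.0 size factors, thinning to 444835 counts (80 cells), pseudocount 10, medians, stricter or no filters and leaving out cells. Tools were Python 3.11.15, pandas 2.3.3, scipy 1.17.1 and R 4.3.3.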

Additional observations from a re-analysis of the deposited data

Results flagged for a closer look

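Of 34 sets of cells with 1 gene, 1 group and 1 age, 6 had a cell far from the others by Dixon's test at 95%. At that level about 1 in 20 sets of normally distributed values would be flagged. Many cells here are at 0, so 6 of 34 cannot be set against that rate. Where all cells but 1 were at 0, the statistic was 1 by construction. Most of the 6 flags rest on a handful of reads. In blue qNSC of 4.5 months 1 of 5 cells had 14.5 CPM of Lrp4 (15 reads) and the others none. In green qNSC of 4.5 months the highest of 10 cells had 22.1 CPM of Lrp4 (18 reads), and in the same cells Lcat was 0 CPM in 1 cell, while the next lowest had 83.6 CPM. Lrp1 was read in 1 of 5 IPC cells of 2 months, at 14.1 CPM (16 reads), and in 1 of 6 IPC cells of 4.5 months, at 7.08 CPM (5 reads). The IPC cell of 4.5 months with 215.7 CPM of Clu (239 reads) is the one with the highest Apoe of its class; the next IPC cell of that age had 4.08 CPM.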

How the results depend on the processing

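No paired analysis was possible because the labels name no animal, each group is 1 sample, and no test was made; replicate numbers are names only. Of 350 differences recomputed for the 7 genes, 348 stayed within the spread between cells and 2 did not, both of Lrp1 with medians in place of means (-4.01 for Pdgfra-negative aNSC minus qNSC, 7.41 for Pdgfra-positive minus Pdgfra-negative aNSC); none of the differences past the rule reversed. Of 58 recomputed counts of genes past the rule, 47 were within 1.5 times. With a difference of 2 and a ratio of 4, 1 gene (Lcat) instead of 4 passed between Pdgfra-negative aNSC and qNSC, and 3 instead of 5 between Pdgfra-positive and Pdgfra-negative aNSC. Between green and red qNSC 0 instead of 1 passed with that rule, on TPM, with pseudocount 10, with medians and without cells with markers of another type. For blue cells 2 passed with scran size factors (Clu higher, Scarb1 lower), and 0 with pseudocount 10, with medians and with the stricter rule. These counts stand without the share of all genes called under the same setting, and that background can move too. With scran size factors, 1042 instead of 1635 genes were higher in Pdgfra-negative aNSC than in qNSC, and 612 instead of 407 lower. The cause of the changed counts was not tested beyond what each setting does. Removing the filter on low values took the share of all genes past the rule to between 2.66% and 16.6% in the 6 comparisons where it differed by over 1.5 times. Requiring 10 reads lowered the share of cells for 7 of 28 gene and group pairs beyond its interval, for example for Clu in IPC from 81.8% to 18.2% and for Lrp4 in qNSC from 36.7% to 11.7%. Depth limits the receptors: 3 counts over the 9 blue cells correspond to 0.451 CPM, and a gene at a few reads cannot be told from one at 0. Cells left out after seeing the data were the IPC cell with the highest Apoe (IPC against Pdgfra-negative aNSC, 5 genes past the rule as before), the aNSC with the lowest Apoe (Pdgfra-negative aNSC against qNSC, 4 as before) and the Pdgfra-positive cells (ages over all cells, 0 as before).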

Other observations

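Cells with markers of another type were few among qNSC (5 of 60) and none of the 11 IPC cells carried them. The summed markers of oligodendrocytes reached 48412 CPM in 1 green cell. Among Pdgfra-negative aNSC the highest summed endothelial markers were 5332 CPM and the highest mural markers 13978 CPM.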
